A study of Mus musculus with 25 samples.

Results

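Blood endothelial-like cells were found among lung cells that had been sorted as lineage negative (Lin-), that is as negative for CD45, CD31 and CD326, the surface antigens of leukocytes, endothelial cells and epithelial cells. A cell was a member when at least 3 of Cdh5, Ptprb, Cd93, Cyyr1 and Clec14a had at least 1 unique molecular identifier (UMI, 1 counted RNA molecule), with fewer than 2 of the lymphatic endothelial genes Prox1, Mmrn1, Flt4 and Ccl21a. Cells were first kept when they held 200 to 7500 genes and at most 20% mitochondrial UMIs. Of 12059 kept cells (13900 barcodes before that filter), 1790 were members.

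Single-cell RNA-seq was deposited as 5 libraries, a single one for each condition, made from 4 pooled mice, and bulk RNA-seq as 20 libraries in 5 groups of 4, all of Lin- cells from mouse lung. All mice carried Col1a1-Cre-ERT2 and floxed alleles of Fas (Fas fl/fl). The naive mice had no bleomycin, and the other 4 groups received bleomycin into the trachea and were studied 3 or 6 weeks later. Mice called Col1-CreERT2;Fas-/- were given tamoxifen and mice called Col1-CreERT2;Fas+/+ were given corn oil, so genotype and tamoxifen cannot be told apart, and the labels give no age. Cre is driven by the Col1a1 promoter, which is active in fibroblasts, and the deposited values count the whole of Fas rather than the floxed exon, so they do not check the deletion. The samples are labelled as primary lung fibroblasts, and the sort combined depletion on magnetic beads with flow cytometry of perfused, enzymatically dispersed lungs. The kept cells of the single-cell libraries held 5615583 (naive) to 35004216 UMIs (6 weeks, Fas+/+), and the bulk libraries held 11819700 to 25189096 counts.

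Blood endothelium lines every vessel of the lung. Its cells adhere through VE-cadherin (Cdh5) and CD31 (Pecam1), and they read blood flow through Klf2 and Klf4, vascular growth factors through Kdr, Flt1, Tek and Tie1, and bone morphogenetic proteins through Acvrl1, Eng and Bmpr2. Alveolar capillaries hold general capillary cells, which carry Gpihbp1, Kit and Plvap, and aerocytes, large cells given over to gas exchange that carry Car4, Ednrb and Apln. Arteries and veins have programmes of their own, with Gja5, Dll4 and Efnb2 on the arterial side and Ackr1, Selp and Nr2f2 on the venous side. Because CD31 is an endothelial surface protein, the gate on CD31 is set to remove these cells. Pecam1 RNA in a cell does not show how much of the protein was on its surface, and why these cells were in the sorted fraction was not tested.

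Many endothelial genes carry ETS-type elements near their start sites, where factors such as Erg bind. The letters CAGGAAG were searched on both strands in RefSeq windows of GRCm38.p6 that run from 250 bases before to 50 bases after each start, and a match on the other strand reads CTTCCTG. Of the 40 rule and pan-endothelial genes, 21 had a window, and 8 of those 21 (38.1%) held a match: Cyyr1, Egfl7, Erg, Emcn, Calcrl, Robo4, Adgrf5 and Rasip1. Among all genes with a window, 14.8% of 27025 held one. Promoters not analysed here are those of Acvrl1, Arhgef15, Cd93, Cdh5, Ecscr, Esam, Gpihbp1, Icam2, Mmrn2, Nos3, Pecam1, Plvap, Ptprb, Ramp2, S1pr1, Sox17, Sox18, Sox7 and Tspan18. The windows shown are those of the rule genes Cyyr1 (chr16:85550324-85550623, minus strand) and Clec14a (chr12:58269209-58269508, minus strand), and of Egfl7 (chr2:26580833-26581132, plus strand) and Emcn (chr3:137340828-137341127, plus strand), an endothelial secreted factor and an endothelial surface sialomucin. Capitals mark the matches, each read 5′ to 3′ on the strand of the gene.
Cyyr1: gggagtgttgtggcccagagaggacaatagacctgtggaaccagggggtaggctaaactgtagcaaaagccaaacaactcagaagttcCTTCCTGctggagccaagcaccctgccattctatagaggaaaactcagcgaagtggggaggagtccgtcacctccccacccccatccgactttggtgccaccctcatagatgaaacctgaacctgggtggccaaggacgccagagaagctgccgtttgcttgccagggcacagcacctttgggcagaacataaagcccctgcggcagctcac
Clec14a: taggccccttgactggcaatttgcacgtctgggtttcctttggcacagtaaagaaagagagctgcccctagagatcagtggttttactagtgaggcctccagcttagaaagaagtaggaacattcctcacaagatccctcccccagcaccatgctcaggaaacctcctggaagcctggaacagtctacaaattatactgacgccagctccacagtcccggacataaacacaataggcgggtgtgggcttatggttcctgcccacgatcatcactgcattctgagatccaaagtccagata
Egfl7: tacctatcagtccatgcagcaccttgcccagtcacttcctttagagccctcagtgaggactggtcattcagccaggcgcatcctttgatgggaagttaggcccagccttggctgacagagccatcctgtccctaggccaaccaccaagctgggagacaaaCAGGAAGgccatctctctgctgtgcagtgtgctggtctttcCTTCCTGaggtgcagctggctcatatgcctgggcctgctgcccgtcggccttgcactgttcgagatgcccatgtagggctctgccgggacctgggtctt
Emcn: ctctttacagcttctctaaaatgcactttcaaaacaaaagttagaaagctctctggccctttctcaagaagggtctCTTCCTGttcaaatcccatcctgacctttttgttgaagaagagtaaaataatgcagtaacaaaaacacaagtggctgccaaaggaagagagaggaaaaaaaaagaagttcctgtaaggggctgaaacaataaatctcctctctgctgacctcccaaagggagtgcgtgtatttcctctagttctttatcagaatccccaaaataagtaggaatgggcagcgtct
The Clec14a window held no match, the Egfl7 window held 2 and the others held 1 each. A match is a run of letters, not a bound site.

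Cell barcodes recurred between the single-cell libraries, and why they did was not tested. A total of 607 barcodes were found in more than 1 library, and 378 of the 766 naive barcodes were among them. In the naive library the kept cells with a shared barcode were the deeper ones, with a median of 11972.5 UMIs against 4520 for the rest, whereas in the 4 bleomycin libraries they were shallow (758 to 1133.5 UMIs, against 6264 to 10858). Among members, 16 had a shared barcode: 2 in the naive library, 1 and 5 at 3 weeks (Fas+/+ and Fas-/-), and 5 and 3 at 6 weeks. Values are therefore also given without these barcodes where they matter, an alternative chosen after seeing the data.

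Members made up 1.49% of kept naive cells (9 of 603, exact Clopper-Pearson 95% interval 0.685 to 2.81). At 3 weeks they were 8.11% of Fas+/+ cells (216 of 2664, 7.10 to 9.21) and 6.25% of Fas-/- cells (163 of 2608, 5.35 to 7.25). At 6 weeks they were 36.5% of Fas+/+ cells (1183 of 3240, 34.9 to 38.2) and 7.44% of Fas-/- cells (219 of 2944, 6.52 to 8.45). The 6-week Fas+/+ library thus held 1183 of the 1790 members, and the interval of its share lay above those of the other 4. These intervals cover the counting of cells only. With 1 library per condition there is no spread between mice, and a difference between conditions cannot be told apart from a difference between sorts or libraries.

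When each cell was thinned to 3000 UMIs, with shallower cells left out (110, 476, 764, 723 and 773 cells, from naive to 6-week Fas-/-), the 6-week Fas+/+ share stayed the highest and the naive share the lowest. The thinned shares were 1.62, 7.08, 4.99, 36.2 and 7.19%, and the same cells gave 1.83, 7.72, 5.42, 37.7 and 7.37% before thinning. Only the 3-week Fas+/+ and 6-week Fas-/- shares, whose intervals overlap, changed places. Without the shared barcodes the shares were 2.77, 8.63, 7.10, 38.7 and 8.61%. In UMIs rather than cells, members gave 0.859% of the kept naive UMIs, 5.10 and 4.02% at 3 weeks, and 22.1 and 3.38% at 6 weeks, since members were shallower than the cells around them. Their median was 4848 UMIs in the naive library and 5311.5, 3447, 5295 and 4311 in the bleomycin libraries, against 8045 and 9365, 6036, 9955 and 9678 in the other kept cells.

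**Figure D1:**
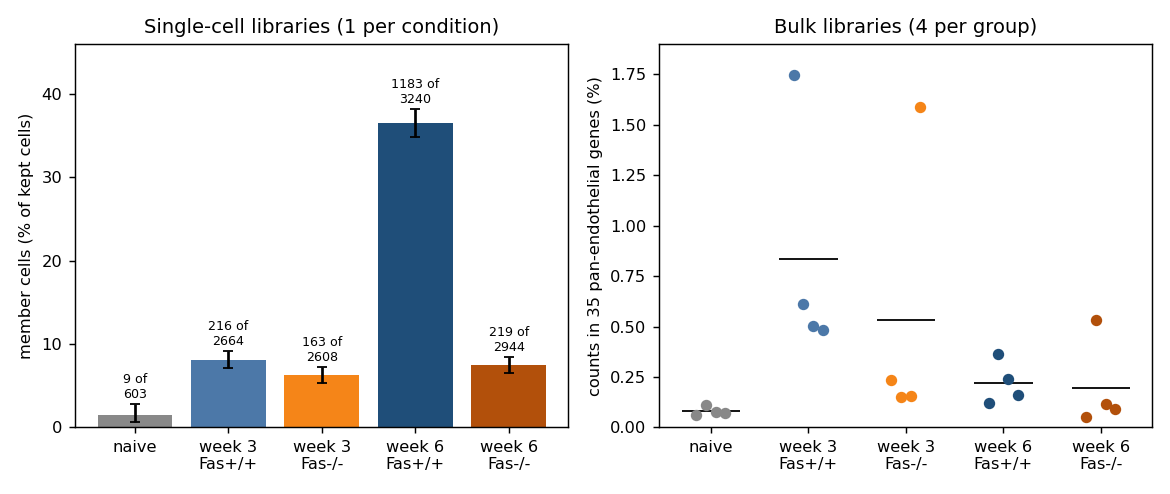
Left, members as a percentage of kept cells in each single-cell library, where bars give the share, whiskers the 95% Clopper-Pearson interval, and labels the cells. Right, the percentage of counts in 35 pan-endothelial genes in each bulk library (points) with the mean of 4 libraries (lines). The 6-week Fas+/+ single-cell library stands at 36.5%, whereas in bulk the highest values are 1.75% (3 weeks, Fas+/+) and 1.59% (3 weeks, Fas-/-).

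Most members met the rule with room to spare: 1361 held all 5 genes, 233 held 4 and 196 held 3, while 294 kept cells held 2 and stayed out. Members with 3 rule genes had a median of 8525, 4238, 5373 and 1988 UMIs in the 4 bleomycin libraries (28, 19, 121 and 27 cells), and the cells with 2 had 8859, 7842, 9847 and 6542.5 (51, 32, 170 and 38 cells). The lymphatic genes removed a further 68 cells, 51 of them from the 6-week Fas+/+ library. Those cells held the lymphatic chemokine gene Ccl21a at 16110 CPM (UMIs per 1000000 summed over the cells in question), Mmrn1 at 1901, the receptor gene Flt4 at 680 and Prox1 at 341, with Pecam1 at 1003. They were left out of all further values.

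The label of blood endothelial-like cells was checked against genes that the rule did not read, although every gene of a selected cell follows the selection, so that these levels are a description without a test. Pecam1, which encodes the CD31 of the gate, was at 1464 CPM in all members, with a UMI in 96.6% of them, against 24.9 CPM and 11.5% in the other kept cells. In the separate libraries it was at 1285 (naive), 1465 and 1261 (3 weeks, Fas+/+ and Fas-/-) and 1482 and 1476 (6 weeks). Ptprc, the CD45 gene, was at 0.729 CPM with a UMI in 0.0559% of members. It was at 0 UMIs in both 3-week libraries and in 6-week Fas-/- members. Epcam, the CD326 gene, was at 0.547 CPM in 0.223% of members and at 0 in both 3-week libraries. In the other kept cells Ptprc was at 0.429 CPM (0.146% of cells) and Epcam at 2.85 CPM (1.08%). So the gene of the endothelial gate antigen was present in nearly every member, while those of the other 2 antigens were nearly absent, in members and in the other cells alike.

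Of the rule genes, which fixed the members, Cdh5 varied least across the bleomycin libraries. It was at 2010, 1690, 1664, 1687 and 1692 CPM (naive, 3 weeks Fas+/+ and Fas-/-, 6 weeks Fas+/+ and Fas-/-), against 0, 7.38, 6.41, 47.8 and 9.93 in the other cells. The highest level outside members was thus in the library with the most members. Over all members, the phosphatase gene Ptprb was at 1848, the surface receptor gene Cd93 at 1143, Cyyr1 at 820 and Clec14a, a surface lectin gene, at 1258 CPM, against 4.44 to 15.1 in the other cells. Ptprb ran from 1534 (3 weeks, Fas+/+) to 1994 (6 weeks, Fas-/-) and to 2425 in the naive library, and the 5 genes summed to 8663 CPM in naive members (Poisson 95% interval 7852 to 9534) and to 6228, 6478, 6846 and 6878 in the bleomycin libraries. Gpihbp1, which carries lipoprotein lipase to the capillary lumen, was at 1232 CPM and had a UMI in 84.4% of members. Sox17, a transcription factor of arterial endothelium, was at 463 CPM with a UMI in 72.5%.

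The pan-endothelial list of 35 genes summed to 32931 CPM in naive members and to 28797, 26737, 28326 and 27137 in the bleomycin libraries. The other cells gave 324, 476, 473, 1138 and 490, and all 35 genes were higher in members than in the other cells in every library. The most abundant were Cldn5 (3985 CPM), a tight junction protein, Ramp2 (2959) and Calcrl (2438), the adrenomedullin receptor pair, and Egfl7 (2633). The growth factor receptor genes Kdr and Flt1 were at 561 and 668, and Tek and Tie1 at 414 and 393. Erg itself was at 34.2 CPM and Nos3, the endothelial nitric oxide synthase, at 39.0.

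**Figure D2:**
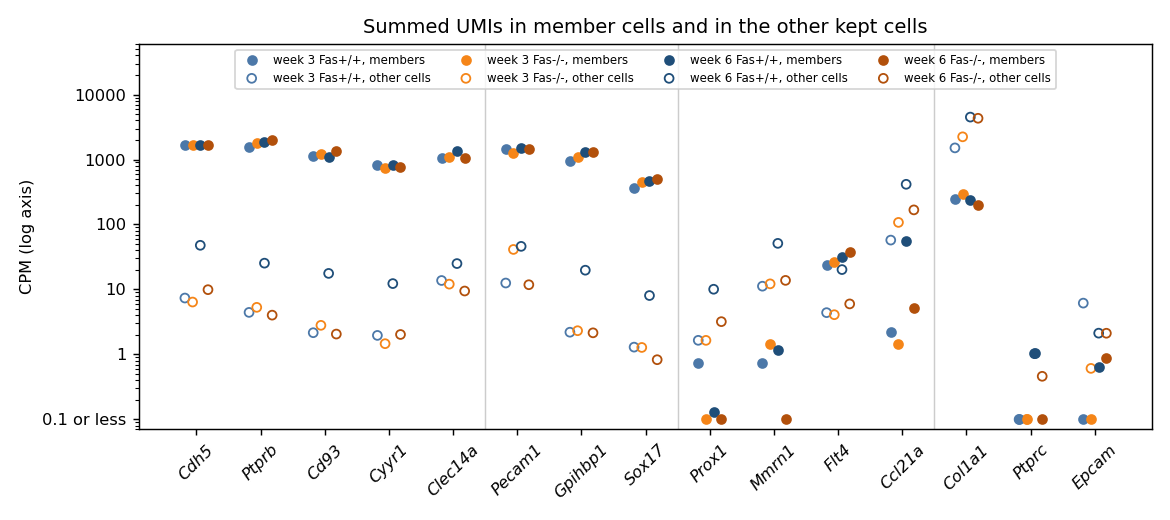
Summed CPM (log axis) of rule genes, other endothelial genes, lymphatic genes, and Col1a1, Ptprc and Epcam in members (filled) and in the other kept cells (open) of the 4 bleomycin libraries. Pecam1 lies at 1261 to 1482 in members and at 11.8 to 46.1 in the other cells, and Col1a1 is lower in members.

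Flow-responsive genes were abundant. Klf2, a transcription factor induced by laminar flow, was at 2425 CPM in naive members and at 3811, 2956, 4036 and 3701 in the bleomycin libraries, against 347 in the other cells of all libraries together. Klf4 was at 1786 and Thbd, the anticoagulant receptor thrombomodulin, at 1396 over all members. Of the ALK1 and BMP genes, Tmem100, a target of this pathway in endothelium, was at 1971, the type I receptor gene Acvrl1 at 1227, Bmpr2 at 1068 and the coreceptor gene Eng at 802. Id3, a further target, did not set members apart, at 1012 CPM against 931 in the other cells. Members also carried ligands that act on neighbouring cells, with Cxcl12 at 1151, Kitl at 421, Pdgfb, which recruits pericytes, at 412 and endothelin-1 (Edn1) at 410.

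Antigen-presentation genes of MHC class II were part of the profile. Cd74, the invariant chain, was at 207 CPM in the 9 naive members and at 1783, 1227, 1760 and 2240 in the bleomycin libraries, against 1.80, 34.2, 36.4, 104 and 30.2 in the other cells. It had a UMI in 73.0% of members. H2-Ab1, H2-Aa and H2-Eb1 stood at 560, 480 and 449, and Ciita, the transactivator of the class, at 38.0 CPM. The immune marker list, by contrast, summed to 0, 7.31, 0, 56.1 and 9.67, with Lyz2 the most abundant where any was found, and Cd3e and Cd79a were at 0 UMIs in all 4 bleomycin libraries. In the other cells the immune list summed to 5.75, 26.4, 14.6, 72.6 and 44.2. The source of the class II transcripts was not tested.

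Fas, the death receptor that the mouse line targets in Col1a1-expressing cells, had a UMI in 63.5% of members and in 33.9% of the other cells, at 229 and 57.1 CPM. By library it was at 332 (naive), 188 and 185 (3 weeks, Fas+/+ and Fas-/-), and 240 and 230 (6 weeks). Its levels in members of both genotypes were close within each week. Its ligand gene Fasl gave 0.0912 CPM in members and 0 in the other cells. Of the genes downstream, Mcl1, which counters cell death, was at 396.

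Genes of other cell types were found in members, not all of them at lower levels than in the other cells. The fibroblast list summed to 414, 2187, 2188, 1986 and 1658 CPM against 13987 to 22353 in the other cells, with Dcn (349) and Col1a1 (237) among its abundant genes. The epithelial list summed to 394, 518, 392, 399 and 597, against 242, 1274, 383, 641 and 398 in the other cells, so it was higher in members of 3 libraries. It was led by Hopx (373), which is not restricted to epithelium and gave 394 of the 597 in 6-week Fas-/- members, and Sftpb was at 0 UMIs in 3 of the 4 bleomycin libraries. The red cell list summed to 311 in naive members and to 4.40 to 41.4 in the others, under the 592 to 7253 of the other cells. Platelet genes gave 113 CPM in 6-week Fas+/+ members, led by Ppbp, against 25.2 in the other cells, and 20.7 against 8.80 in the naive library. In the remaining 3 libraries they gave 1.46 to 7.91 and were lower than in the other cells. The part of free RNA, doublets and adhering cells in these levels was not tested. Of the lymphatic genes that the rule did not read, Lyve1 was at 410 and Pdpn at 14.7 CPM.

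Members fell into 8 subgroups when clustered on their own (leiden, resolution 0.5). Subgroup 1 held 653 cells (36.5% of members) and subgroup 2 held 389 (21.7%). Subgroups 3, 4 and 5 held 184, 179 and 176 cells, and subgroups 6, 7 and 8 held 79, 72 and 58. The genes that define a subgroup are not findings about it. Their values serve only to say which vessels the members came closest to.

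Subgroup 4, aerocyte-like, was led by Fibin, Ednrb and Chst1, and 7 of its top 10 genes by fold were on the aerocyte list. Car4, a carbonic anhydrase of the capillary surface, was at 3574 CPM in it with a UMI in every cell, against 2 UMIs in all of subgroup 6. The list summed to 9402 CPM, against 487 in the other members, with all 8 genes higher. MHC class II genes summed to 436 in it against 3794 in the other members, and Vwf was at 41.5 CPM. Its epithelial list also had a higher sum than in the other subgroups, at 1431 CPM against 262 in the other members, but only 1 of the 11 genes was higher. Of its 179 cells, 119 came from the 6-week Fas+/+ library, 26 and 16 from the 3-week Fas+/+ and Fas-/- libraries, 16 from 6-week Fas-/- and 2 from naive.

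Subgroup 6, venous-like, was led by Slc6a2, a noradrenaline transporter gene, with Cpe, Prss23 and the venule chemokine receptor Ackr1. The venous list summed to 10519 CPM against 873 in the other members, with all 10 genes higher. Vwf, which encodes von Willebrand factor, reached 4598 CPM in it, and Lyve1 1794. Pericyte and smooth muscle genes were also higher here, at 1150 against 207. It held 45 cells of 6-week Fas+/+, 17 and 5 of the 3-week Fas+/+ and Fas-/- libraries, 12 of 6-week Fas-/- and none of the 9 naive members.

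The other 6 subgroups keep numbers only, by the fixed rules for naming. Subgroup 1 had the highest general capillary sum (6685 CPM against 3768 in the other members) and MHC class II sum (4993 against 2451), with Sema3c at 2869, but its leading genes included the platelet genes Ppbp and Pf4, and its platelet list stood at 222 against 11.1. Subgroup 2 was led by Atp13a3, Bmx and Gja5 and had 10 of 11 arterial genes higher, with an arterial sum of 3341 against 1509, Edn1 at 911 and Cxcl12 at 2537. Subgroup 5, 143 of whose 176 cells came from the 6-week Fas+/+ library, was led by Fabp4, Ccl21a, Scgb3a1, Cmah and Lrg1. Subgroup 3 was led by Mki67 and Dtl with a median of 1940.5 UMIs, and subgroup 7 had the lowest median, 1484 UMIs.

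Subgroup 8 stood apart. Its cells had a median of 17610 UMIs, and it was led by the fibroblast genes Dcn, C3, Gsn and Pdgfra. Its fibroblast list summed to 14692 CPM against 616 in the other members, its immune list to 370 against 6.16, and its pan-endothelial list to 7314 against 30427. It also held 7 of the 16 members with a barcode shared between libraries. Whether its cells are doublets was not tested. The doublet caller marked 46 of 12059 cells (0.381%), and 20 of those 46 were members. How well it worked on these libraries was not checked, so its calls were not relied on.

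**Figure D3:**
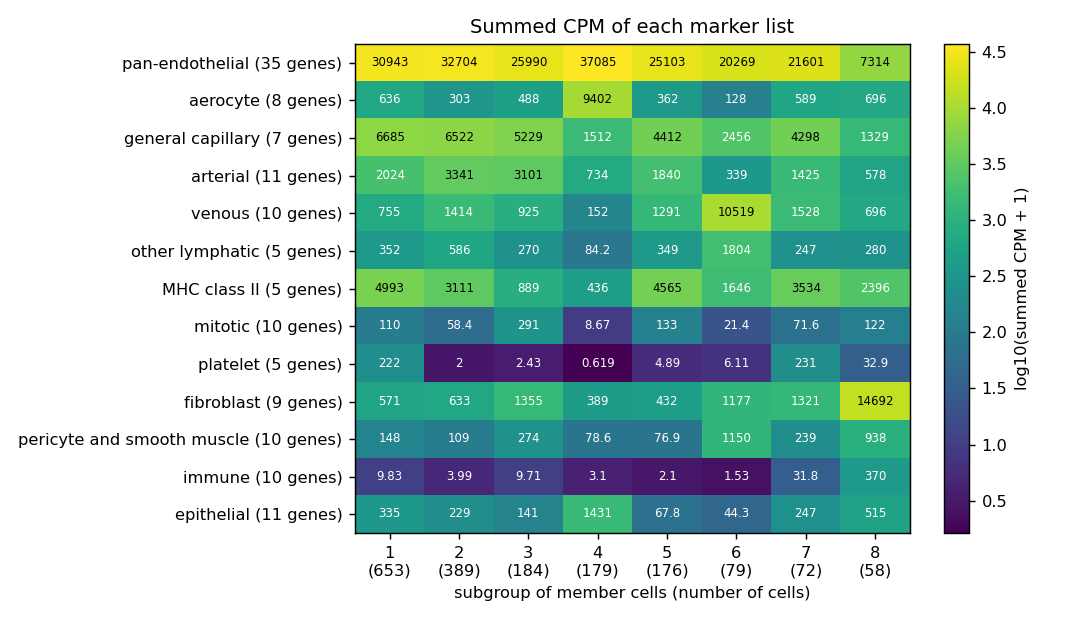
Summed CPM of 13 marker lists (printed in each cell, coloured on a log10 scale) in the 8 subgroups of members, with the number of cells under each. The aerocyte list peaks in subgroup 4 (9402), the venous list in subgroup 6 (10519) and the fibroblast list in subgroup 8 (14692).

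Mitotic genes were detected in few members, at a depth that limits how many can be seen. At least 3 of 10 mitotic genes had a UMI in 0 of 9 naive and 0 of 216 3-week Fas+/+ members (upper Clopper-Pearson limit 1.69%), in 1 of 163 3-week Fas-/- members, in 16 of 1183 6-week Fas+/+ members (1.35%) and in 1 of 219 6-week Fas-/- members. In the other cells of the 6-week libraries the shares were 1.94 and 1.83%. Mki67 was at 0 UMIs in the 3-week Fas+/+ members.

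Members were next compared between libraries by log2 ratios of summed UMIs with a pseudocount of 1 UMI, with Poisson 95% intervals that cover counting only. Naive members were too few for such ratios. From 3 to 6 weeks, genes were ordered by the smaller of their ratios in the 2 genotypes, and the first in that order was Lrg1, which encodes a secreted glycoprotein of inflamed and angiogenic vessels. Lrg1 was at 0 UMIs in the 9 naive members, at 143 and 88.8 CPM at 3 weeks (Fas+/+ and Fas-/-) and at 395 and 490 at 6 weeks. The log2 ratio of 6 to 3 weeks was 1.46 (interval 1.26 to 1.69) in Fas+/+ and 2.44 (2.08 to 2.87) in Fas-/-. In the other cells of the same libraries Lrg1 was also higher at 6 weeks, with log2 ratios of 4.17 and 1.85, although at 33.1 CPM or less. Of the genes compared, 1.99% (Fas+/+) and 2.23% (Fas-/-) differed by 2-fold or more in either direction.

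Lrg1 differed among the subgroups more than between the weeks in subgroups 1 and 2. In subgroup 1 it was at 103 CPM at 3 weeks and 97.3 at 6 weeks in Fas+/+ and at 97.9 and 113 in Fas-/-. In subgroup 2 it was at 163 and 119 in Fas+/+ and at 76.9 and 79.7 in Fas-/-. It was at 1500 and 1553 CPM in subgroup 5 of the 6-week libraries, and at 1240 in subgroup 6 of 6-week Fas+/+. Subgroup 5 held 3.24 and 1.23% of the members in the 3-week libraries (7 and 2 cells) and 12.1 and 11.0% in the 6-week libraries (143 and 24 cells). In Fas+/+ it was higher at 6 weeks in subgroup 3 (30.1 and 90.6) and in subgroup 4 (31.6 and 171), although the 3-week values there rest on 3 and 8 UMIs. So 2 of the 4 subgroups that could be compared in Fas+/+ had the higher 6-week level, and the number of cells in subgroup 5, which Lrg1 itself helped to define, also differed.

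Cmah, a sialic acid hydroxylase gene, was at 27.1 and 69.0 CPM in Fas+/+ members at 3 and 6 weeks and at 23.3 and 101 in Fas-/- members. Its log2 ratios were 1.31 and 2.04, with ratios of -0.58 and -0.79 in the other cells. Scn3b, a sodium channel subunit gene, went from 126 to 284 and from 135 to 266, and Scarb1, the HDL receptor gene, from 157 to 293 and from 121 to 317. Ankrd37, which responds to hypoxia, went from 54.8 to 144 and from 32.02 to 68.6. In Fas+/+ these 3 genes moved alike outside members, with log2 ratios of 1.69 (Scn3b), 1.21 (Scarb1) and 1.19 (Ankrd37) in the other cells against 1.16, 0.89 and 1.38 in members, and in Fas-/- the other cells gave 0.58, 0.03 and -0.68. The genes with the lowest ratios were Lars2 (log2 ratio -2.39 and -2.14), AY036118 (-1.64 and -1.95), Gm42418 (-1.58 and -1.38), Gm11808 (-1.24 and -1.65) and mt-Atp8 (-1.004 and -0.85). Lars2, AY036118 and Gm42418 moved alike in the other cells (-2.38, -1.95 and -1.60 in Fas+/+). So did Gm11808 (-1.13 in Fas+/+ and -1.41 in Fas-/-) and mt-Atp8 (-1.35 and -1.44). These differences were thus not particular to members.

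Between genotypes at 3 weeks, 1.26% of genes differed by 2-fold or more. Spry4, a feedback inhibitor of growth factor signals, was at 140 CPM in Fas+/+ members and at 36.4 in Fas-/- members, a log2 ratio of -1.90 (-2.61 to -1.34), against -0.30 in the other cells. Atf3, a stress-induced transcription factor, was at 183 and 55.3, a log2 ratio of -1.69 (-2.26 to -1.23), against -0.52 in the other cells. Serpina3g (-2.35) and Ccdc85b (-3.38) were also lower in Fas-/- members, with -1.47 and -2.67 in the other cells. Of the higher genes, Ddit4, a stress-induced inhibitor of growth signals, had a ratio of 1.72 in members and 0.65 in the other cells, whereas Wdr89 (2.14), Tpm3-rs7 (2.05), Rps27rt (1.98) and Syt11 (1.79) had 2.01, 1.57, 1.95 and 1.25 there. Of the 9 venous genes with enough UMIs, 6 were lower and 3 higher in Fas-/-, with a median log2 ratio of -0.99. Vwf was at 713 and 358 CPM, and Ackr1 was at 0 UMIs in 3-week Fas-/- members. The venous-like subgroup 6 made up 7.87% of the Fas+/+ and 3.07% of the Fas-/- members at 3 weeks (17 and 5 cells), and its part in these ratios was not tested.

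At 6 weeks 1.46% of genes differed by 2-fold or more between genotypes. Npr3, the natriuretic peptide clearance receptor, was at 78.1 CPM in Fas+/+ members and 247 in Fas-/- members (log2 ratio 1.66, 1.45 to 1.87), against -0.44 in the other cells. It also differed in the same direction at 3 weeks, at 126 and 294. At resolution 1.0, a subgroup led by Lars2, Npr3 and AY036118 held 30.6 and 52.1% of the 3-week Fas+/+ and Fas-/- members (66 and 85 cells). It held 2.20 and 4.57% at 6 weeks (26 and 10 cells). Rps27rt, Syt11 and Gm42418 were also among its leading genes, and its part in the ratios of these genes was not tested. Creb5 (36.2 and 91.5, log2 ratio 1.35) and Mpp3 (9.06 and 29.9, 1.74) were higher in Fas-/- as well. Fabp4, a fatty acid carrier of capillary endothelium and a leading gene of subgroup 5, was at 216 in Fas+/+ members and at 14.1 in Fas-/- members (-3.85, -4.75 to -3.24). It was at 27.0 and 14.6 at 3 weeks. Subgroup 5 held 12.1% of the members at 6 weeks in Fas+/+ and 11.0% in Fas-/- (143 and 24 cells). At the finer resolution of 1.0 a subgroup led by Fabp4, Ccl21a and Glycam1 held 1.44% of the 6-week Fas+/+ members (17 cells) and 0.457% of the Fas-/- members (1 cell), and its part in the Fabp4 difference was not tested. Ppbp (51.7 and 1.76) and Pf4 (39.7 and 3.52) are platelet genes, and C1qb (15.3 and 0) and C1qa (14.7 and 0) are macrophage genes.

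Interferon-stimulated genes were higher in 6-week Fas-/- members for 9 of the 10 genes of the list, and for 8 of them the interval lay above 0, as for 6.99% of all genes with 20 or more UMIs, with a median log2 ratio of 0.96. Oasl2 was at 64.9 and 149 CPM and Ifit1 at 41.0 and 91.5 (Fas+/+ and Fas-/-), while Bst2 was at 491 and 667. The list sums in the other cells of these libraries were 435 and 897 CPM, so the same difference stood outside members. Ifit3b, not on the list, had a log2 ratio of 1.69 in members and 1.39 in the other cells. All 5 MHC class II genes were higher in 6-week Fas-/- members, by a median log2 ratio of 0.32, against a median of 0.018 over the 8580 genes compared. Their sums in members were 3269 CPM (Fas+/+) and 4092 CPM (Fas-/-). In the other cells the sums ran the other way, at 188 and 50.1 CPM. In members the pan-endothelial list had median log2 ratios between -0.07 and 0.00 in the 4 single-cell comparisons. At 3 weeks the interferon list summed to 1058 CPM in Fas+/+ and 984 in Fas-/- members. In the replicated bulk libraries, described next, all 10 of these genes were higher in Fas-/- at 3 weeks and 4 were called by edgeR (median log2 difference 1.03), where 0.171% of all genes were called. These calls fell to 0 without 3-week Fas+/+ replicate 2 or 3 or Fas-/- replicate 1, with medians of 1.04 to 1.05, and to 2 without Fas-/- replicate 2 or 3. Calls over all genes were also few in these fits. They numbered 0 of 16016, 0 of 16026 and 5 of 16062 in the former, and 20 of 16028 and 8 of 16034 in the latter. Both lists ran the other way from the members at 6 weeks. There 0 of the 10 interferon-stimulated genes had a log2 difference above 0 (Fas-/- minus Fas+/+, median -0.47) and 0 of the 5 MHC class II genes (median -0.44). Neither list had a call by edgeR or DESeq2 (0 each), where 0.0507% of all genes were called by edgeR, and 5 and 0 genes had an unadjusted edgeR p of 0.05 or less, as did 8.07% of all genes.

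**Figure D4:**
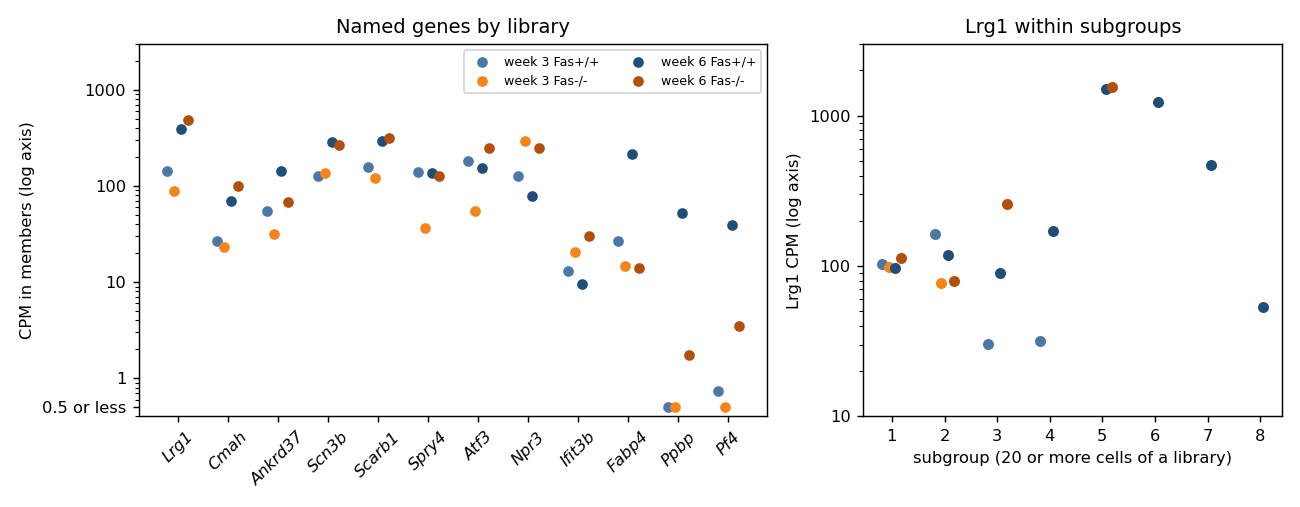
Left, CPM (log axis) of 12 named genes in members of the 4 bleomycin libraries. Right, Lrg1 in each subgroup of each library with 20 or more of its cells. Lrg1 lies near 100 CPM in subgroup 1 of all 4 libraries and at 1500 and 1553 in subgroup 5 of the 6-week libraries.

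The bulk libraries hold the same 5 conditions, were not used to choose the members, and have 4 replicates. Whether they came from the same mice or sorts as the single cells is not given in the sources used here. In bulk, fewer cells of a type and less RNA per cell cannot be told apart. Bulk levels are CPM of all counts in a library, with no correction for gene length. The 35 pan-endothelial genes took 0.0607, 0.111, 0.0743 and 0.0698% of the counts in naive replicates 1 to 4. At 3 weeks they took 1.75, 0.611, 0.501 and 0.484% in Fas+/+ and 0.236, 0.151, 0.157 and 1.59% in Fas-/-. At 6 weeks they took 0.119, 0.364, 0.239 and 0.162% in Fas+/+ and 0.0492, 0.532, 0.114 and 0.0892% in Fas-/-. Every bleomycin library but 6-week Fas-/- replicates 1 and 4 lay above all naive libraries. The same genes took 0.0605, 0.192, 0.153, 0.714 and 0.139% of the UMIs of the 5 single-cell libraries, so the library with the most members lay above all 4 bulk libraries of its condition, and the 3-week Fas+/+ library below all 4 of its own.

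In each bleomycin group a single library held the highest level of nearly all of these genes. All 40 rule and pan-endothelial genes were highest in replicate 1 of 3-week Fas+/+, in replicate 4 of 3-week Fas-/- and in replicate 2 of 6-week Fas-/-, and 39 of them in replicate 2 of 6-week Fas+/+. In the naive group 36 were highest in replicate 2. Calls that rest on these libraries are given below with and without them.

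Compared with naive mice, 34 of 35 pan-endothelial genes rose at 3 weeks in Fas+/+ mice (edgeR quasi-likelihood test, adjusted p of 0.05 or less), with a median log2 change of 4.26, while 22.1% of all genes tested were called higher. Only Gpr4, a proton-sensing receptor gene, was not called (log2 change 0.62). In Fas-/- mice 30 of 35 rose (median 3.57, 17.2% of all genes called higher). Kdr (log2 change 1.83, edgeR adjusted p = 0.0773), Acvrl1, Nostrin, Tspan18 and Gpr4 were not called. All 5 rule genes rose in both genotypes, and all 5 lost the call in Fas-/- without replicate 4, Clec14a also without naive replicate 1, 3 or 4. Without the high library of each group 30 rose in Fas+/+ (23.3% of all genes called higher in that fit). In Fas-/- 10 were called, 9 higher and 1 lower, with a median of 1.94, where 29.5% of all genes were called and 14.5% called higher. So 10 of 35 called either way is near the 29.5% of all genes, whereas 9 of 35 called higher lies above the 14.5%. Most of the Fas-/- calls rest on replicate 4.

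Pecam1 was at 18.3, 54.1, 26.7 and 23.6 CPM in the naive libraries. At 3 weeks it was at 1625, 568, 453 and 413 in Fas+/+ and at 183, 104, 110 and 1482 in Fas-/-. All 8 of these libraries lay above the naive ones, and the genotypes overlapped. The log2 change was 4.64 (SE 1.12, edgeR adjusted p = 0.00332) in Fas+/+ and 3.93 (SE 1.09, edgeR adjusted p = 0.0111) in Fas-/-. Without replicate 4 the latter was 2.10 (edgeR adjusted p = 0.0794). A two-sided exact permutation test of group means gave p = 0.0286 for each, the smallest p that 4 against 4 allows.

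Cdh5 was at 25.6, 92.7, 48.5 and 32.9 CPM in naive libraries, at 2649, 873, 660 and 656 in 3-week Fas+/+ and at 295, 158, 177 and 2383.5 in 3-week Fas-/-. Its log2 changes were 4.60 (SE 1.12, edgeR adjusted p = 0.00351) and 3.91 (SE 1.09, edgeR adjusted p = 0.0114), and the second was 2.06 without replicate 4 (edgeR adjusted p = 0.0833). Gpihbp1, the capillary gene, was at 2.20, 7.10, 3.67 and 2.34 in naive libraries, at 205, 79.0, 71.7 and 65.5 in Fas+/+ and at 28.7, 13.9, 16.97 and 213 in Fas-/-. Sox17 was at 2.07, 6.82, 4.68 and 2.34 in naive libraries, at 216, 81.0, 65.3 and 62.4 in Fas+/+ and at 25.4, 14.0, 14.7 and 166 in Fas-/-. Both genes rose in both genotypes by edgeR, with no 3-week library as low as any naive one. Without 3-week Fas-/- replicate 4 the Fas-/- changes were 2.35 for Gpihbp1 (edgeR adjusted p = 0.0599) and 2.16 for Sox17 (edgeR adjusted p = 0.0628).

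Each vessel type had genes that rose at 3 weeks, to be read against the 22.1% (Fas+/+) and 17.2% (Fas-/-) of all genes called higher. General capillary genes rose for 7 of 7 in Fas+/+ and 6 of 7 in Fas-/-, where Sema3c, a secreted guidance factor, was not called (log2 change 1.24, edgeR adjusted p = 0.114). Arterial genes rose for 9 and 6 of 11, venous genes for 6 and 4 of 10, and aerocyte genes for 4 and 3 of 8. In each of these last 3 lists 1 gene fell in both genotypes. These were Gja5 (arterial), Nr2f2 (venous) and Tbx2 (aerocyte), whose log2 changes in Fas+/+ were -0.83, -0.72 and -0.65. Each was also at a higher CPM in the single cells outside the members, at 31.1, 380 and 316 against 28.4, 72.2 and 197 in members. MHC class II genes rose for 5 of 5 in both genotypes. Without 3-week Fas-/- replicate 4, where 14.5% of all genes were called higher, the Fas-/- counts were 2 of 7 general capillary, 2 of 11 arterial, 2 of 10 venous and 0 of 8 aerocyte genes higher, while MHC class II stayed at 5 of 5.

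Car4 was at 3.87, 11.2, 6.59 and 4.84 CPM in naive libraries, at 272, 71.2, 59.6 and 57.3 in 3-week Fas+/+ and at 31.9, 14.7, 17.6 and 219.8 in 3-week Fas-/-. It rose by 4.11 (SE 1.13, edgeR adjusted p = 0.00762) and 3.42 (SE 1.10, edgeR adjusted p = 0.0248), and the second was 1.67 without replicate 4 (edgeR adjusted p = 0.192) and also lost its call without naive replicate 1, 3 or 4. Vwf was at 10.2, 29.8, 10.1 and 10.5 in naive libraries, at 1647, 709, 816 and 621 in Fas+/+ and at 222, 122, 139 and 1409.8 in Fas-/-. It rose by 5.96 (SE 1.16, edgeR adjusted p = 0.000682) and 4.96 (SE 1.11, edgeR adjusted p = 0.00296), and the second was 3.39 without replicate 4 (edgeR adjusted p = 0.0108). For both genes the highest naive library lay below the lowest 3-week library of either genotype.

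The other gates moved too. Ptprc was at 0.043 to 0.239 CPM in naive libraries and at 0.760 to 2.57 in 3-week Fas+/+ and 0.611 to 1.57 in 3-week Fas-/- libraries, and rose in both (log2 change 3.75 and 3.20, edgeR adjusted p = 0.00258 and 0.0107). Epcam rose by 2.09 and 2.18 (edgeR adjusted p = 0.0193 and 0.0198), calls that were lost without naive replicate 4 (1.73 and 1.82) and, in Fas-/-, without replicate 4 (1.80). Against the 22.1 and 17.2% of all genes called higher, immune marker genes rose for 7 of 8 tested in both genotypes, epithelial genes for 9 of 11, platelet genes for 4 of 5 and the 4 lymphatic genes of the rule for 4 of 4. Red cell genes fell for 5 of 5, from a summed mean of 5044 CPM in naive libraries to 46.2 and 20.97, and 7 of 10 pericyte and smooth muscle genes fell, where 19.2 and 14.8% of all genes were called lower. The naive libraries thus differed from the 3-week libraries in several cell types at once, and the part of the sort in the endothelial difference was not tested.

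At 6 weeks, 1 of 35 pan-endothelial genes was called in each genotype, Ecscr, an endothelial adhesion gene, with log2 changes of 2.19 (SE 0.61, edgeR adjusted p = 0.0420) in Fas+/+ and 2.10 (SE 0.61, edgeR adjusted p = 0.0462) in Fas-/-. Both calls were lost without any single naive library, and also without 6-week replicate 2, 3 or 4 in Fas+/+ and replicate 2 or 4 in Fas-/-. Unadjusted p was 0.05 or less for 23 and 18 of the 35, all of them higher, as were 10.9 and 11.3% of all genes at that p. Of all genes 3.57 and 3.66% were called higher, and the medians of the list were 2.11 and 1.96. Against those shares, edgeR called epithelial genes higher for 10 and 3 of 11 in Fas+/+ and Fas-/-. Immune genes were called higher for 5 and 0 of 8 tested, and platelet genes for 4 and 0 of 5. Red cell genes fell for 5 of 5 in both, where 274 (Fas+/+) and 444 (Fas-/-) of 15773 genes were called lower. Pecam1 was at 69.2, 290, 197 and 111.7 CPM in Fas+/+, all above the naive libraries, and at 9.29, 465, 61.2 and 43.2 in Fas-/-, which overlapped them. Its log2 changes were 2.44 (SE 1.02, edgeR adjusted p = 0.192) and 2.23 (SE 1.01, edgeR adjusted p = 0.213). The call count in Fas+/+ depended on the libraries in the fit. With only the naive and 6-week Fas+/+ libraries, which changed both the estimate of spread and the genes tested, 30 of 35 were called, against 10.7% of all genes, with Pecam1 at an edgeR adjusted p of 0.010. The same kind of fit for Fas-/- called 2 (8.86% of all genes). In the edgeR fit to all groups without 6-week Fas-/- replicate 2, 0 were called, where 560 of 16052 genes were called, and the Fas-/- median was 0.30.

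Between genotypes, 0 of 35 pan-endothelial genes were called by edgeR at either week, with medians of -0.66 at 3 weeks and -0.21 at 6 weeks, where 0.171 and 0.0507% of all genes were called. None had an unadjusted p of 0.05 or less (0 at each week, against 8.62 and 8.07% of all genes), and DESeq2 also called 0 at each week. Other cell types differed more at 6 weeks, where 0 of 11 epithelial, 0 of 8 immune and 0 of 5 platelet genes had a log2 difference above 0. Of these, 8, 5 and 5 had an unadjusted edgeR p of 0.05 or less, and edgeR called 0, 0 and 1. For Pecam1 the log2 difference was -0.70 (SE 0.97) at 3 weeks and -0.21 (SE 0.96) at 6 weeks, so the SE was itself close to a 2-fold difference. Leaving out 3-week Fas-/- replicate 4 gave 2 calls, both lower, and a median of -2.35, with 3.64% of all genes called. Leaving out 6-week Fas-/- replicate 2 gave a 6-week median of -1.74 with 0 calls, where 5 of 16052 genes were called. Without 6-week Fas+/+ replicate 2 the median was 0.18. The 6-week difference of 36.5 against 7.44% was between 2 single-cell libraries, whereas the bulk groups overlapped, in that 6-week Fas+/+ libraries took 0.119 to 0.364% and Fas-/- libraries 0.0492 to 0.532% of counts in these genes. The overlap rests on Fas-/- replicate 2, since the other 3 Fas-/- libraries lay below all 4 of Fas+/+.

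From 3 to 6 weeks 3 of 35 pan-endothelial genes fell in Fas+/+ mice (Erg, Ecscr and Plvap) with a median log2 change of -2.12, and 10.9% of all genes were called lower. In the single-cell libraries the share of members in Fas+/+ cells was higher at 6 than at 3 weeks. Erg changed by -2.18 (SE 0.61, edgeR adjusted p = 0.0151). For 33 of the 35 genes the 4 libraries at 6 weeks all lay below the 4 at 3 weeks, as for 11.2% of all genes, and a fit of these 2 groups alone called 29 lower, with 9.67% of all genes. None was called without 6-week Fas+/+ replicate 1 and 1 without replicate 4, where 1102 of 16029 and 1186 of 16045 genes were called lower. In Fas-/- mice 0 of 35 were called by edgeR and 1 by DESeq2, with 3 at an unadjusted p of 0.05 or less (25.6% of all genes), a median of -1.53 and 4.54% of all genes called lower. When 6-week replicate 2 was left out 24 were called lower (4.73% of all genes, median -3.23). When 3-week replicate 4 was left out 0 were called, where 591 of 16011 genes were called lower. The median was then 0.13, so the direction in Fas-/- rests on 1 library. The difference between genotypes in this change (interaction) was called for none of the 35, with 0 at an unadjusted p of 0.05 or less, a median of 0.47 and a smallest adjusted p of 0.907 by edgeR.

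In bulk, Lrg1 was at 0.258, 0.638, 0.143 and 0.562 CPM in naive libraries, at 25.9, 75.7, 101 and 60.3 in 3-week Fas+/+ and at 13.7, 15.5, 12.1 and 68.1 in 3-week Fas-/-. At 6 weeks it was at 1.85, 12.9, 7.18 and 3.12 in Fas+/+ and at 1.72, 17.7, 2.14 and 2.90 in Fas-/-. Every bleomycin library lay above every naive library. The log2 changes were 7.31 (SE 1.03, edgeR adjusted p = 4.37e-05) and 6.04 (SE 1.00, edgeR adjusted p = 0.000327) at 3 weeks, and 3.92 (SE 1.00, edgeR adjusted p = 0.0275) and 3.89 (SE 1.00, edgeR adjusted p = 0.0276) at 6 weeks.

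Lrg1 fell from 3 to 6 weeks in Fas+/+ mice, by 3.39 on the log2 scale (SE 0.79, edgeR adjusted p = 0.00518), with edgeR adjusted p from 0.00211 to 0.0209 when each library was left out. Its log2 change in Fas-/- mice was -2.16 (edgeR adjusted p = 0.0825). The ratio in single-cell members ran the other way, at 1.46 and 2.44. In bulk its highest 3-week Fas+/+ value was in replicate 3, not in replicate 1, where the 40 endothelial genes were highest. The 6-week calls against naive were lost when any naive library was left out, and also without 6-week replicate 2 or 3 in Fas+/+ (log2 change 3.28 and 3.84, edgeR adjusted p = 0.113 and 0.0600) or replicate 2 in Fas-/- (2.44, edgeR adjusted p = 0.179).

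**Figure D5:**
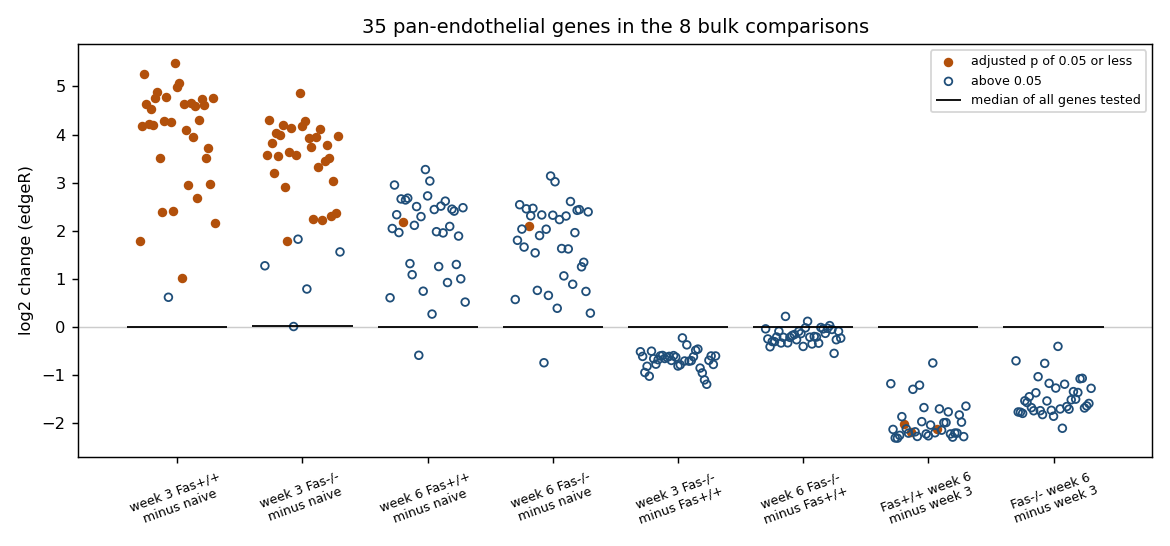
Log2 changes (edgeR) of the 35 pan-endothelial genes in 8 bulk comparisons, filled where the adjusted p was 0.05 or less, with the median of all genes tested as a line. Medians of the list lie at 4.26 and 3.57 at 3 weeks against naive, at 2.11 and 1.96 at 6 weeks, at -0.66 and -0.21 between genotypes, and at -2.12 and -1.53 between weeks.

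Of the 10 venous genes, 2 rose at 6 weeks in Fas+/+ mice, Selp and Vwf, where 3.57% of all genes were called higher. In Fas-/- mice 0 of the 10 were called by edgeR, with 2 at an unadjusted p of 0.05 or less, and 1 by DESeq2. Selp, the gene of the leukocyte adhesion receptor P-selectin, was at 0.645, 2.31, 3.47 and 0.855 CPM against 0.0861, 0, 0.0477 and 0.0433 in naive libraries, which held 0 to 2 counts each (log2 change 5.20, SE 1.37, edgeR adjusted p = 0.0321). Its call was lost without any single naive library or 6-week Fas+/+ replicate 2 or 3, with changes between 4.69 and 5.69. Vwf was at 88.7, 443, 188 and 109 CPM in Fas+/+ (log2 change 3.77, SE 1.05, edgeR adjusted p = 0.0432) and at 9.13, 422, 59.8 and 33.3 in Fas-/- (3.11, edgeR adjusted p = 0.0810). The first call was lost on leaving out any naive library or 6-week Fas+/+ replicate 2, 3 or 4, with changes between 3.08 and 4.33. Fas rose in the bulk libraries at 3 weeks, by 0.90 (edgeR adjusted p = 0.00183) in Fas+/+ and 1.00 (edgeR adjusted p = 0.00126) in Fas-/-. At 6 weeks the changes were 0.51 (edgeR adjusted p = 0.158) and 0.87 (edgeR adjusted p = 0.0140). These bulk levels of Fas are those of all sorted cells and not of members.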

How the data were processed

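Single-cell values start from the UMI counts that the authors deposited as unfiltered-by-quality Cell Ranger 3.0.2 matrices on GRCm38, with 31053 features and no normalization. Bulk values start from the raw counts the authors deposited for 47729 Ensembl genes, for which reads from a stranded mRNA kit were trimmed with skewer, aligned to GRCm38 with HISAT2 and counted with htseq-count. The strand setting of the counting is not given in the sources used here. Their normalized table was not used. Samples were grouped by their deposited labels.

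Members of each library were found by the rule, and their UMIs were summed per library and given as CPM, with exact Poisson (levels) and Clopper-Pearson (shares) 95% intervals. These cover counting error only, and with 1 pool of 4 mice per condition no test was made. For ratios 1 UMI was added to each sum, and a gene needed 100 member UMIs over the 2 libraries (20 where listed) and a library 50 members. Members were clustered on 2000 variable genes and 20 components in scanpy 1.11.5 (Python 3.11.15, scipy 1.17.1). Doublets were scored with Scrublet but not removed.

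Bulk counts were tested in R 4.3.3 with edgeR 4.0.16 (filterByExpr, 15773 genes, TMM, quasi-likelihood fit to all 5 groups, Benjamini-Hochberg adjustment, called at 0.05), with DESeq2 1.42.0 as an alternative. The study counts n as individual animals, with 4 per group in bulk, but the labels tie no library to an animal, so p-values measure the spread between these samples. Per gene, replicates differed by a chi-square of 7.23 to 197, far above counting noise, and none was a repeat of another. On data simulated for the 3-week Fas+/+ comparison with naive (14945 genes), 82% of 2-fold changes and 100% of 4-fold changes were called. In the bulk libraries themselves, edgeR called 1 of 35 pan-endothelial genes at 6 weeks in Fas+/+, where their median log2 change was 2.11. How often changes of this size are called at the spread of the endothelial genes was not tested. Alternatives were other size factors, no filter, a fit of only 2 groups, a replicate block, each replicate left out, and, for single cells, other thresholds of the rule and other sets of cells.

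Named in the text are the rule genes, markers and sort antigens, up to 4 most abundant genes of each list, listed genes at 0, and up to 5 genes each way per single-cell comparison with members at or above the other cells. A gene that this rule names is not reported here. In the accounts of subgroups and of bulk calls, other genes were named after their values were seen. The members and the lists were chosen with earlier results of these data known.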

Additional observations from a re-analysis of the deposited data

Results flagged for a closer look

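In 3 of the 5 bulk groups 1 library stood far from the other 3 in the pan-endothelial sum, its gap to the nearest library divided by the range of the group being above 0.83, the critical value of Dixon's test for 4 libraries. Over 29 named genes and the pan-endothelial sum, in 5 groups each, this held in 69 of 150 cases (46%), where chance alone would give about 1 in 20, and the genes are not independent since they come from the same cells.

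In 3-week Fas+/+ replicate 1 the pan-endothelial genes summed to 17454 CPM, with Cdh5 at 2649, Pecam1 at 1625, Car4 at 272, Sox17 at 216 and Gpihbp1 at 205 CPM. In 3-week Fas-/- replicate 4 the sum was 15874 CPM, with Cdh5 at 2383.5, Pecam1 at 1482, Vwf at 1409.8, Car4 at 219.8, Gpihbp1 at 213, Sox17 at 166 and Lrg1 at 68.1 CPM. In 6-week Fas-/- replicate 2 the sum was 5322 CPM, with Cdh5 at 713, Pecam1 at 465, Vwf at 422, Car4 at 83.1, Sox17 at 66.0, Gpihbp1 at 61.9 and Lrg1 at 17.7 CPM. Single genes stood apart for Ptprc at 4.37 CPM in 6-week Fas+/+ replicate 2 and for Vwf at 29.8 CPM in naive replicate 2. The same 3 libraries also held the highest sums of the 4 lymphatic genes of the rule in 2 of their groups, at 283 CPM (3-week Fas-/- replicate 4) and 183 CPM (6-week Fas-/- replicate 2), whereas in 3-week Fas+/+ replicate 1 held 196 of a range up to 217 CPM. Replicate 2 of 6-week Fas+/+ held Ptprc at 4.37 and Epcam at 5.17 CPM, both the highest of their group. The cause was not tested.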

How the results depend on the processing

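The share of members at 6 weeks in Fas+/+ was 41.4% with at least 2 rule genes, 32.8% with at least 4 and 38.7% without shared barcodes. At 3 weeks it was 9.87, 7.06 and, thinned, 7.08% in Fas+/+, and 7.32 (at least 2 genes) and 4.99% (thinned) in Fas-/-. At 6 weeks in Fas-/- it was 8.49% (at least 2 genes) and 8.61% (without shared barcodes). In 25 other cases shares moved by less than their interval. Pecam1 in members was at 1673, 1442, 1699.8 and 1679.8 CPM (3-week Fas+/+ and Fas-/-, 6-week Fas+/+ and Fas-/-) when mitochondrial, ribosomal and haemoglobin genes were left out of the total, at 1651, 1601 and 1587 (3-week Fas+/+, 6-week Fas+/+ and Fas-/-) without members with Col1a1, Ptprc or Epcam, and at 1364 and 1378 in 3-week Fas-/- without called doublets and without shared barcodes. At a resolution of 1.0 there were 13 subgroups, 1 of which held the same 179 aerocyte-like cells, and 78 of the 79 venous-like cells shared 1 subgroup of 83. Ratios of members kept their size in 186 cases and moved in 12. Without members with Col1a1, Ptprc or Epcam the 6-week genotype ratios of C1qb and C1qa could not be formed, since 1 and 0 UMIs were left in Fas+/+ and 0 in Fas-/-, at or under a floor of 3.

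In bulk, pan-endothelial calls against naive at 6 weeks numbered 4 by DESeq2, 30 with only 2 groups in the fit and 0 with the replicate block in Fas+/+, and 4, 2 and 0 in Fas-/-, which also had 0 with no filter on low counts. From 3 to 6 weeks they numbered 5 (DESeq2) and 29 (only 2 groups) in Fas+/+ and 1 (DESeq2) in Fas-/-. Leaving out 1 library at a time, these counts ran from 30 to 34 (3-week Fas+/+), 10 to 31 (3-week Fas-/-), 0 to 1 (6-week Fas+/+ and, again 0 to 1, Fas-/-), 0 to 2 between genotypes at 3 weeks, 0 to 0 at 6 weeks, 0 to 3 between weeks in Fas+/+ and 0 to 24 in Fas-/-. DESeq2 gave no adjusted p for Cdh5, Ptprb, Cyyr1, Clec14a and Gpihbp1 at 3 weeks. A missing adjusted p was counted as not called, so these are among the 134 lost values given below. Counted so, DESeq2 called 25 (Fas+/+) and 22 (Fas-/-) of 35 pan-endothelial genes higher than naive at 3 weeks. Over all genes, 14 of 40 same-numbered pairs had a correlation of deviations above 0.1 (range -0.464 to 0.403), and between the 6-week groups 3 of 4 did (0.190, 0.403, 0.0122 and 0.185). In no pair of groups did every number pass, so the numbers were not taken to pair the libraries. Replicate 2 was nonetheless the highest for most of the 40 endothelial genes in the naive group and in both 6-week groups (36, 39 and 40). Over the single bulk genes, 3049 repeated values kept their side of the threshold, 134 lost it and 62 gained it. The other size factors moved no count of pan-endothelial calls by over 1.5 times, and the median of all genes stayed within 0.02 of 0 in each comparison. The naive members number 9, too few for ratios between libraries.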
